A study of Mus musculus with 10 samples.

Results

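Basal cells and Sca-1+ luminal cells sorted from mouse prostate were compared gene by gene, in 2 basal and 3 Sca-1+ luminal libraries out of 10 RNA-seq libraries of sorted prostate cells. Libraries were assigned to the comparison by the gate named in their label. The mice were C57BL/6 animals 8 to 12 weeks old, and no genetic change or treatment is named for any group. Basal cells were gated as lineage-negative (Lin-), CD24 low and CD49f high, and Sca-1+ luminal cells as lineage-negative, CD24 high, CD49f low and Sca-1 positive. The remaining libraries are 3 of Sca-1- luminal cells and 2 of stromal cells, and they serve below as reference levels. The labels carry a culture protocol for every library beside the sorting protocol, and whether cells were cultured before RNA was taken is not stated. They do not say either which animals each library came from, so p-values here measure the spread between these libraries, which may be technical.

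The prostate gland is a tube of 2 epithelial layers. Basal cells sit on the basement membrane, are held to it by hemidesmosomes, and carry the keratin pair Krt5 and Krt14 and the transcription factor p63. Luminal cells line the lumen, are joined by tight junctions, respond to androgen and secrete the proteins of the prostatic fluid. Luminal cells that carry Sca-1 are known to be frequent in the proximal ducts near the urethra, where Psca and Krt4 mark them.

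The values are FPKM, fragments scaled to transcript length and to the mapped fragments of a library, summed over the transcripts of a gene. Depth estimated from the steps between low values was 20150000 to 27050000 fragments per library, and 9829 to 11331 genes reached 1 FPKM in a library. A log2 difference below is the difference of group means of log2(FPKM + 1), which understates the change of genes near or under 1 FPKM. A gene is called when its adjusted p, from limma with Benjamini-Hochberg adjustment over all 12479 genes tested, is under 0.05. Values of a gene are given in the order basal 1, basal 2, then Sca-1+ luminal 1, 2 and 3.

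Marker genes separated the groups as the gates are labelled. Krt5, a basal keratin (chr15:101707070-101712898, mm10), stood at 382 and 535 FPKM in basal libraries 1 and 2 and 5.92, 19.97 and 7.46 FPKM in the Sca-1+ luminal group. The galectin gene Lgals7 (chr7:28863853-28866284) stood at 165 and 287 FPKM against 1.45, 9.104 and 2.28 FPKM. Psca, which encodes a surface protein anchored by a lipid (chr15:74714839-74717069), stood at 7.87 and 40.9 FPKM against 465, 1386 and 3356 FPKM. Krt4, a keratin of non-cornifying stratified epithelia (chr15:101918535-101924735), stood at 2.30 and 2.52 FPKM against 64.1, 92.1 and 379.9 FPKM. None of the 4 genes overlapped between the groups, and in each a wide gap lay between the nearest libraries of the 2 groups. Their log2 differences were 5.405 (SE 0.72, adjusted p = 0.00164) for Krt5 and 5.66 (SE 0.77, adjusted p = 0.0017) for Lgals7, higher in basal, and 6.07 (SE 0.93, adjusted p = 0.00272) for Psca and 5.28 (SE 0.67, adjusted p = 0.00125) for Krt4, higher in Sca-1+ luminal. The calls of Krt5, Lgals7, Psca and Krt4 held under every alternative tried.

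The genes of the sorted surface proteins separated less. Itga6 encodes CD49f, the integrin chain on which basal cells were gated high, and stood at 122 and 140.2 FPKM in basal and 21.1, 40.2 and 47.5 FPKM in the Sca-1+ luminal group (log2 difference 1.901, SE 0.55, adjusted p = 0.0376). Single libraries ended the call of Itga6 (adjusted p = 0.0582 to 0.196 without any one of basal 1, basal 2, Sca-1+ luminal 1, Sca-1+ luminal 2 or Sca-1- luminal 1). Ly6a encodes Sca-1 and stood at 421 and 473 FPKM in basal and 677, 1116 and 2301 FPKM in the Sca-1+ luminal group, with no overlap but an adjusted p of 0.136. The stromal libraries held 1290 and 1930 FPKM of Ly6a and the Sca-1- luminal libraries 54.3, 82.8 and 19.9 FPKM, so basal cells lay well above the Sca-1- gate. Cd24a encodes CD24 and stood at 226 and 199 FPKM in basal and 197, 412 and 1091 FPKM in the Sca-1+ luminal group (adjusted p = 0.25). Only Sca-1+ luminal 2 and 3 lay above both basal libraries in Cd24a, and Sca-1+ luminal 1 lay just under them.

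Over all genes, 2448 of 12479 were called (19.6%), 542 higher in basal (4.34%) and 1906 higher in Sca-1+ luminal (15.3%). Each list count below is to be read against these shares. In all 2448 the 2 basal libraries did not overlap the 3 Sca-1+ luminal libraries, and 2101 of them differed by 2-fold or more on the log2(FPKM + 1) scale. Without regard to the test, 14.8% of genes had both basal libraries above all Sca-1+ luminal libraries and 38.7% had the reverse. The split of calls depended on the scaling: basal genes were 22.1% of calls on the deposited scale, 47.2% after median-of-ratios scaling and 53.2% after quantile normalization. The 2 rescalings moved the median log2 difference of all genes from 0.29 toward Sca-1+ luminal by 0.27 and 0.37. Genes called higher in basal came to 9.41% and 8.81% of those tested under these rescalings, and genes higher in Sca-1+ luminal to 10.5% and 7.74%. Every one of the 542 basal genes was also called under median-of-ratios scaling and 540 under quantile normalization, against 1312 and 965 of the 1906 Sca-1+ luminal genes. The count of calls fell to 841 without basal 1, 642 without basal 2 and 1466 without Sca-1+ luminal 2. In the same fits, calls higher in basal numbered 203, 198 and 354, and calls higher in Sca-1+ luminal 638, 444 and 1112.

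**Figure D1:**
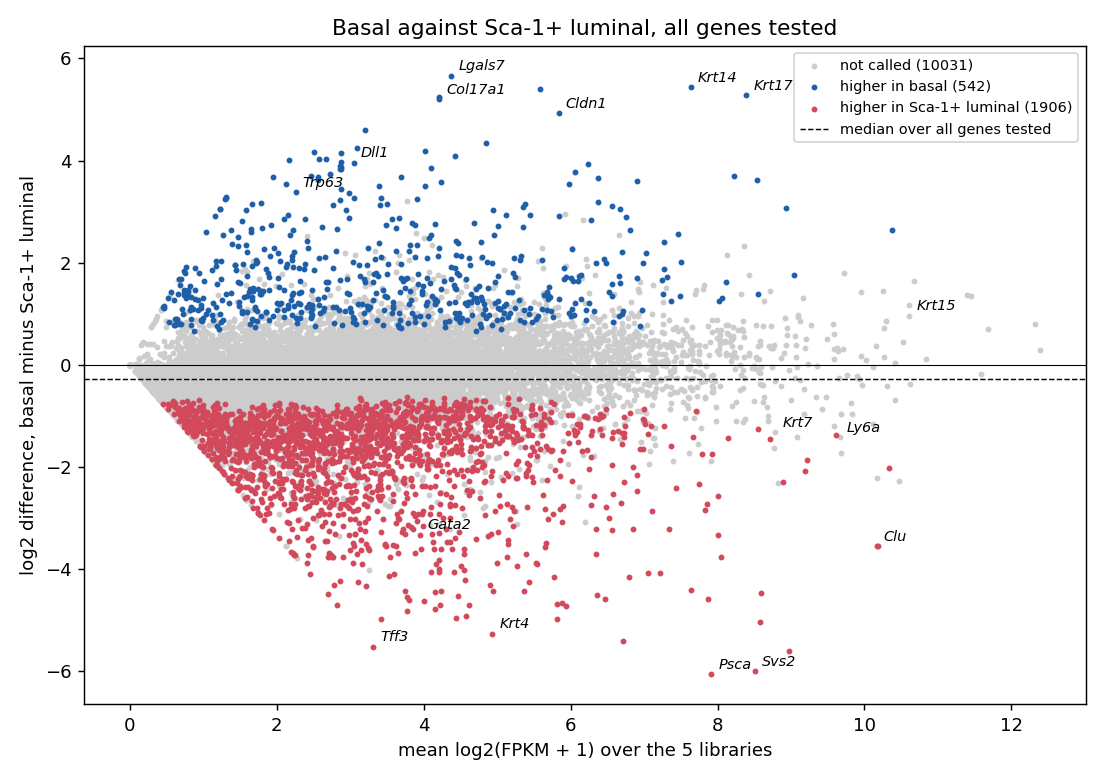
Each point is 1 of the 12479 genes tested: the x axis is its mean log2(FPKM + 1) over the 5 libraries and the y axis its log2 difference, basal minus Sca-1+ luminal. Blue points are the 542 genes called higher in basal, red points the 1906 called higher in Sca-1+ luminal, and the dashed line is the median of all genes, at -0.29.

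The 3 Sca-1+ luminal libraries were not alike, and fibroblast transcripts differed widely between them. The 21 fibroblast markers, such as the collagens Col1a1, Col1a2 and Col3a1, summed to 6655, 3295 and 483 FPKM in Sca-1+ luminal 1, 2 and 3. They summed to 750.2 and 569 FPKM in basal, 9468 and 7648 FPKM in stromal, and 94.95 to 171.9 FPKM in Sca-1- luminal libraries. None of the 21 was at 0 in any library. The median over these markers of the ratio to the stromal mean was 86.2%, 39.8% and 6.03% in Sca-1+ luminal 1, 2 and 3, and 1.82% and 2.69% in basal 1 and 2. Sca-1+ luminal 1 correlated with the stromal libraries at 0.916 and 0.915 across 12479 genes, and Sca-1+ luminal 3 at 0.704 and 0.736 (Pearson, log2(FPKM + 1), genes not being independent). In bulk RNA, more stromal cells and more RNA per stromal cell cannot be told apart, and which cells these transcripts came from was not tested.

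Because of this spread, many results were also read against the stromal libraries or in Sca-1+ luminal 3 alone, the library of its group with the least fibroblast RNA. The fit of that library alone assumes that it varies as the other groups do. Of the 1906 genes higher in Sca-1+ luminal, 1139 lay above both stromal libraries in all 3 Sca-1+ luminal libraries and 767 did not. Against Sca-1+ luminal 3 alone, 2002 genes were called (16.0%), 565 higher in basal (4.53%) and 1437 higher in Sca-1+ luminal (11.5%). The same call was made there for 838 of the 1139 genes above the stromal level, for 261 of the other 767, and for 335 of the 542 basal genes. Sca-1+ luminal 3 itself had to lie above both stromal libraries for a gene to be among the 1139. Their higher rate of calls against that library therefore follows in part from this choice. Among the basal genes, 517 of 542 lay above both stromal libraries.

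**Figure D2:**
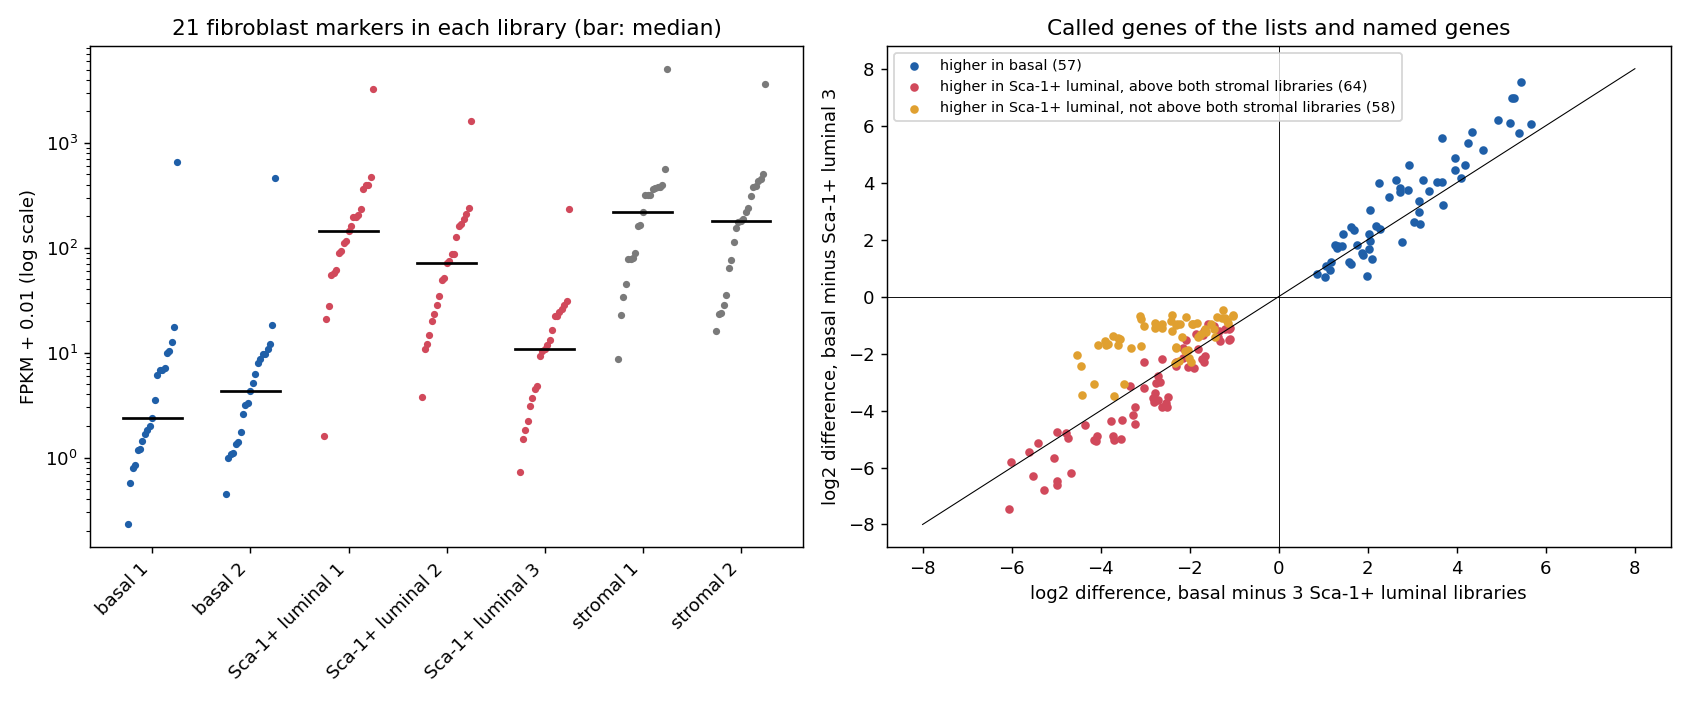
Left, FPKM + 0.01 (log axis) of the 21 fibroblast markers in each library, 1 point per gene, with the median as a bar; right, log2 difference against Sca-1+ luminal 3 alone (y axis) and against all 3 Sca-1+ luminal libraries (x axis) for the called genes of the lists and named genes, with the line of equality. Of the 58 genes not above both stromal libraries (orange), 54 lie nearer 0 on the y axis than on the x axis, against 16 of the 57 basal genes (blue) and 16 of the 64 Sca-1+ luminal genes above stromal level (red). The orange genes include 15 fibroblast markers. Sca-1+ luminal 3 was picked for its low level of these markers, so for them the smaller difference follows from the choice. The red genes had to be above stromal level in Sca-1+ luminal 3 too, so their count also follows in part from a choice.

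Several keratins were far higher in basal cells. Of 8 basal keratins tested, 4 were called higher in basal and none in Sca-1+ luminal cells, against 4.34% and 15.3% of all genes. Their median log2 difference was 2.57, and the count was 2 without basal 1 or basal 2. Krt14, the partner of Krt5, stood at 1956 and 1866 FPKM in basal libraries 1 and 2 and 57.4, 139 and 9.404 FPKM in the Sca-1+ luminal group (log2 difference 5.44, SE 1.09, adjusted p = 0.00883). Krt17, a keratin of basal and activated epidermal cells, stood at 2229 and 4062 FPKM against 64.2, 297 and 22.8 FPKM (log2 difference 5.28, SE 1.28, adjusted p = 0.0196). In both, Sca-1+ luminal 3 was the lowest of the 5 libraries and Sca-1+ luminal 2 the highest of its group. Krt16 stood at 93.8 and 88.4 FPKM against 2.23, 9.85 and 2.75 FPKM (log2 difference 4.18, SE 0.66, adjusted p = 0.00315). Krt75, a hair follicle keratin, stood at 43.2 and 86.02 FPKM against 0.525, 5.23 and 0.771 FPKM (log2 difference 4.597, SE 0.68, adjusted p = 0.0023). The calls of Krt16 and Krt75 held under every alternative tried, and leaving out 1 library ended those of Krt14 (adjusted p = 0.0664 without basal 1 and 0.0719 without basal 2) and Krt17 (adjusted p = 0.0876 without basal 1 and 0.142 without basal 2). Reads of near-identical keratins may be split between genes, so Krt14, Krt16 and Krt17 are less certain one by one.

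The keratins given next were not called with all libraries, and most did not follow the gates. Krt15, listed as basal, stood at 2633 and 2054 FPKM in basal libraries 1 and 2 and 571, 935 and 3225 FPKM in the Sca-1+ luminal group, and Sca-1+ luminal 3 was the highest of the 5 libraries (adjusted p = 0.417). Krt6a stood at 50.97 and 42.2 FPKM against 21.4, 41.8 and 78 FPKM, again with the highest value in Sca-1+ luminal 3 (adjusted p = 0.912). Krt23 ran the other way, at 30.4 and 112 FPKM against 92.8, 390.2 and 338 FPKM, with overlapping groups (adjusted p = 0.183). Of the 5 luminal and simple-epithelium keratins limma called none, 1 had an unadjusted p under 0.05, and no other tool was run. Their median of 0.23 toward Sca-1+ luminal turned to 0.14 toward basal under median-of-ratios scaling. Krt8 stood at 606 and 1234 FPKM against 448, 1528 and 1533 FPKM and its partner Krt18 at 1554 and 2004 FPKM against 820.4, 1976 and 1356 FPKM, both with overlapping groups. The simple keratins thus lay at a like level in both groups, and Krt19 and Krt7 were more uneven. Krt19 stood at 412 and 508 FPKM against 1041, 1876 and 5016 FPKM, with no overlap but an adjusted p of 0.0842, and it was called against Sca-1+ luminal 3 alone (log2 difference 3.45, adjusted p = 0.0412). Krt7 stood at 201 and 320.1 FPKM against 242, 708 and 1499 FPKM (adjusted p = 0.282), with Sca-1+ luminal 1 at the basal level and Sca-1+ luminal 3 several times above it. Krt13, often paired with Krt4, stood at 13.6 and 9.23 FPKM against 3.89, 4.70 and 22.7 FPKM and did not share the difference of Krt4 (adjusted p = 0.584).

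Genes of the same keratin cluster differed in pattern. On chromosome 11 the type I genes Krt15 (chr11:100131758-100135928), Krt19 (chr11:100140810-100148665), Krt14 (chr11:100203162-100207548), Krt16 (chr11:100246091-100248902) and Krt17 (chr11:100256217-100261029) lie in 1 cluster, and the last 3 were called higher in basal and the first 2 were not called. On chromosome 15 the type II genes Krt75 (chr15:101563345-101573904) and Krt5 were called higher in basal, Krt4 was called higher in Sca-1+ luminal, and Krt6a (chr15:101689910-101694307), Krt7 (chr15:101411043-101430313) and Krt8 (chr15:101996698-102004482) were not called.

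**Figure D3:**
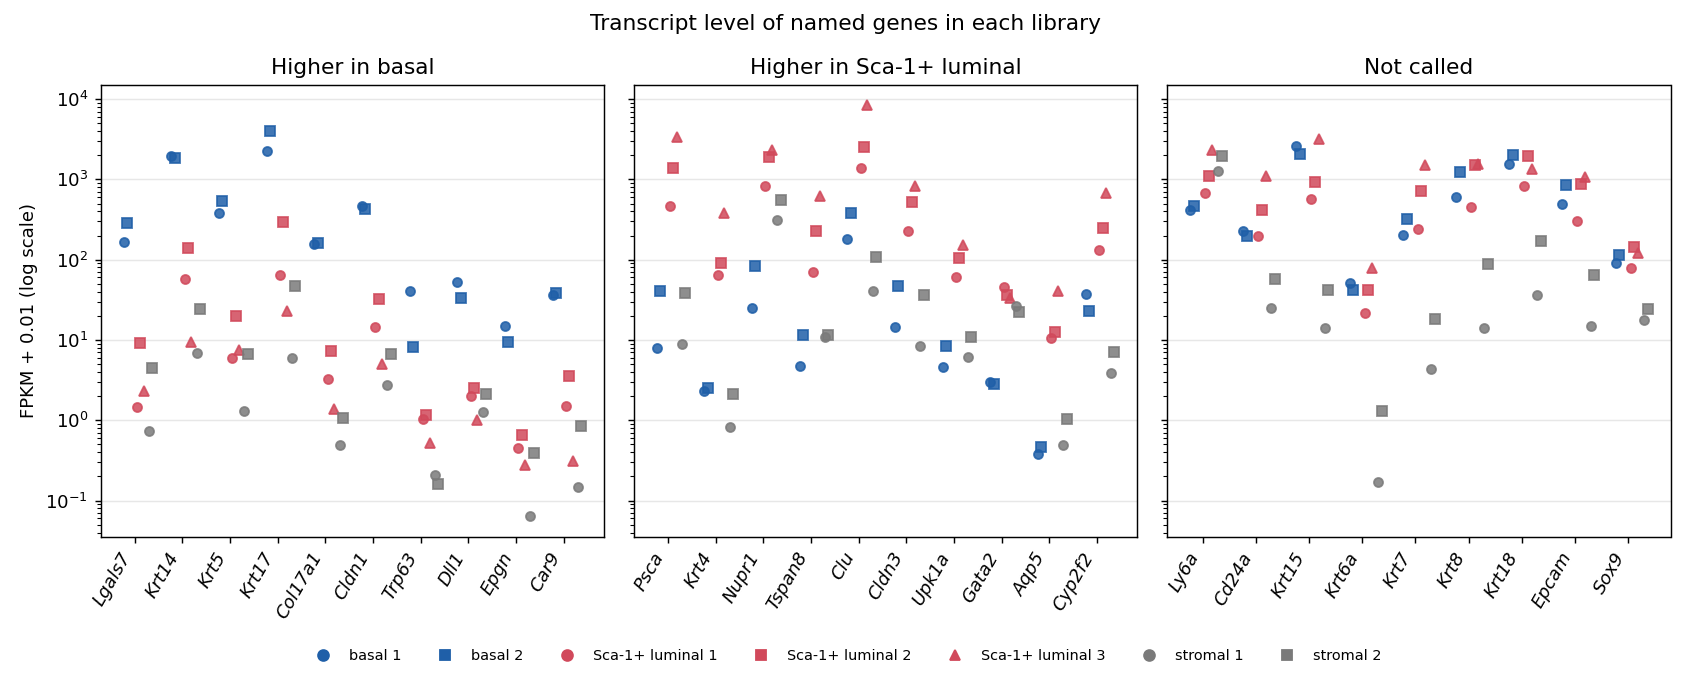
FPKM + 0.01 (log axis) of 10 genes called higher in basal, 10 called higher in Sca-1+ luminal and 9 not called, 1 point per library: basal in blue, Sca-1+ luminal in red and stromal in grey. The blue and red points are apart for all genes of the first 2 panels, whereas in the third panel Sca-1+ luminal 3 (triangle) often lies above and Sca-1+ luminal 1 (circle) often below the basal points.

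The 250 bases before the transcription start are shown for 3 genes with basal-high transcripts, the pair Krt5 and Krt14 and the hemidesmosome gene Col17a1, and for Pglyrp1, high in Sca-1+ luminal cells, so that the start regions of genes that moved in opposite directions can be read side by side. They were taken from RefSeq on GRCm38.p6, the assembly of mm10, and all 4 are written on the gene's own strand, 5′ to 3′. Capitals mark matches, on either strand, to 4 motifs, and no matches overlap in these windows. These were the TATA box, spelled TATAAA, which positions the start of transcription, and the AP-1 site, spelled TGANTCA, which Fos and Jun proteins bind. The others were the Snail-type E-box, spelled CACCTG, and the GATA site, spelled AGATAA, which GATA factors bind.
Krt5, chr15:101712906-101713155, minus strand: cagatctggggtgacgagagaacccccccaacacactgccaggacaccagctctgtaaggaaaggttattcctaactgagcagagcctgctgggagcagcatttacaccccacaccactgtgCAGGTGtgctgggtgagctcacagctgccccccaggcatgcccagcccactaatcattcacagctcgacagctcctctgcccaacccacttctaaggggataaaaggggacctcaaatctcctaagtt
Krt14, chr11:100206031-100206280, minus strand: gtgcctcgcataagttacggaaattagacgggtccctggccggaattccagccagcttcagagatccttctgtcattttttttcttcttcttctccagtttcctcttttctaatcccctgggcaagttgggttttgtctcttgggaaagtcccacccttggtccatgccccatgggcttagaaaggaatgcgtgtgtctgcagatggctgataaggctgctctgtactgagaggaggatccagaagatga
Col17a1, chr19:47692043-47692292, minus strand: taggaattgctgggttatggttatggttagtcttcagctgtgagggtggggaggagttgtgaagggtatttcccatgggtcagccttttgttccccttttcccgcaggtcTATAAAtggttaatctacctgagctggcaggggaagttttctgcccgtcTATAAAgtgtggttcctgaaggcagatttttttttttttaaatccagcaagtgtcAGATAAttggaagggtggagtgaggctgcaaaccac
Pglyrp1, chr7:18884440-18884689, plus strand: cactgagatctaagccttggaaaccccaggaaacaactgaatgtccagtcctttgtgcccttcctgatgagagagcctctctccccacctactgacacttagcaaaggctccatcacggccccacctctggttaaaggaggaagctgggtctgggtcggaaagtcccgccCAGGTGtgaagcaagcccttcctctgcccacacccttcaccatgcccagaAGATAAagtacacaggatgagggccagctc
The RefSeq start of Krt14 lies inside the span of the deposited Krt14 transcripts, so its window overlaps them. The Col17a1 gene, by the span given below, also reaches into its own window, past the GATA site. Krt5 held 1 E-box, 128 to 123 bases before its start, on the opposite strand. Krt14 held none of the 4 motifs. Col17a1 held 2 TATA boxes, at 140 to 135 and 91 to 86 bases before the start, and a GATA site at 36 to 31. Pglyrp1 held an E-box at 80 to 75 and a GATA site at 30 to 25 bases before its start. A window was found for 13 of the 20 genes with the largest differences. Over the tested genes with a window (8983), 6.87% held the TATA box, 4.72% the AP-1 site, 15.2% the E-box and 5.74% the GATA site. Among the 384 windows of genes higher in basal the shares were 9.11%, 6.25%, 16.7% and 4.95%, and among the 1358 of genes higher in Sca-1+ luminal 8.47%, 5.96%, 18.9% and 7.14%. These matches describe letters and are not binding sites.

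Genes that fasten cells to the basement membrane were higher in basal cells. Of 9 hemidesmosome and laminin-332 genes, 6 were called higher in basal and none in Sca-1+ luminal, against 4.34% of all genes. Their median log2 difference was 1.98, and the count was 3 against Sca-1+ luminal 3 alone and 3 without basal 2, Sca-1+ luminal 1 or Sca-1+ luminal 2. Col17a1, the collagen XVII chain of hemidesmosomes (chr19:47646344-47692094), stood at 157 and 161 FPKM in basal libraries 1 and 2 and 3.27, 7.33 and 1.35 FPKM in the Sca-1+ luminal group (log2 difference 5.196, SE 0.61, adjusted p = 0.000907). Lamb3, a chain of laminin-332, to which hemidesmosomes bind, stood at 128 and 106 FPKM against 5.19, 7.06 and 5.56 FPKM (log2 difference 4.095, SE 0.30, adjusted p = 0.000147). Lama3, another of its chains, stood at 68.2 and 50.3 FPKM against 2.64, 3.25 and 5.47 FPKM (log2 difference 3.68, SE 0.29, adjusted p = 0.000177). The calls of Col17a1, Lamb3 and Lama3 held under every alternative tried, and no Sca-1+ luminal library came near the basal level in any of them. Itgb4, the partner of Itga6 in hemidesmosomes, stood at 62.6 and 75.6 FPKM against 6.995, 15.2 and 41.3 FPKM (log2 difference 1.98, adjusted p = 0.0427), with Sca-1+ luminal 3 nearest to basal. The tetraspanin Cd151 was the sixth call with Itga6, at 13.8 and 24.3 FPKM against 6.15, 8.01 and 9.22 FPKM (log2 difference 1.16, adjusted p = 0.0306). Fits without 1 library ended the calls of Itgb4 (adjusted p = 0.0542 to 0.215 without any one of basal 1, basal 2, Sca-1+ luminal 1, Sca-1+ luminal 2, Sca-1- luminal 1, Sca-1- luminal 2, Sca-1- luminal 3, stromal 1 or stromal 2) and Cd151 (adjusted p = 0.261 without basal 2, 0.0695 without Sca-1+ luminal 1 and 0.0717 without Sca-1+ luminal 2). Plec, the plectin linker, did not separate the groups, at 27.9 and 131 FPKM against 41.2, 101 and 106 FPKM.

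Among 11 matrix-binding integrins of epithelium, 3 were called higher in basal and none in Sca-1+ luminal, and the count was 1 without basal 1 or basal 2. Of all genes, 4.34% and 15.3% were called in these directions. Itga3, the laminin-332 receptor chain, stood at 295 and 323 FPKM against 18.3, 38.6 and 51.4 FPKM (log2 difference 3.18, SE 0.49, adjusted p = 0.00279), a call that held under every alternative tried. Itga2, a collagen receptor chain, stood at 64.5 and 100.2 FPKM against 3.898, 15 and 20.4 FPKM (log2 difference 2.78, SE 0.63, adjusted p = 0.0147). Itgb1, their shared partner, stood at 459 and 458 FPKM against 266, 171 and 139 FPKM (log2 difference 1.304, SE 0.32, adjusted p = 0.0206), with Sca-1+ luminal 1 nearest to basal. Both calls rested on single libraries, Itga2 (adjusted p = 0.063 without basal 1 and 0.128 without basal 2) and Itgb1 (adjusted p = 0.112 without basal 1, 0.123 without basal 2 and 0.0645 without Sca-1+ luminal 2). Itgb6 stood at 101 and 202 FPKM against 15.02, 49.9 and 108 FPKM, so that Sca-1+ luminal 3 reached the basal level (adjusted p = 0.163). Itga5, the fibronectin receptor chain, stood at 28.8 and 39.1 FPKM against 236, 95.6 and 17.9 FPKM, in the order of the fibroblast markers, with 278 and 216 FPKM in stromal libraries.

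Cell-to-cell adhesion genes divided between the groups. Of 10 desmosome and cadherin genes, 3 were called higher in basal and 1 higher in Sca-1+ luminal, against 4.34% and 15.3% of all genes. Counting both directions, the groups did not overlap in 9 of the 10, against 6677 of all 12479 genes. Those genes were 14.8% of all in the basal and 38.7% in the Sca-1+ luminal direction. The basal count was 6 without Sca-1+ luminal 3, and the 1 call of the other direction was lost without a basal library. Cdh3, P-cadherin, stood at 53.9 and 44.2 FPKM against 2.903, 2.95 and 0.1898 FPKM (log2 difference 4.24, SE 0.52, adjusted p = 0.00111). Pkp1, a plaque protein of stratified desmosomes, stood at 28.2 and 24.2 FPKM against 1.05, 2.98 and 3.44 FPKM (log2 difference 3.03, SE 0.34, adjusted p = 0.000708). Perp, a desmosome protein that p63 controls in skin, stood at 433 and 407 FPKM against 75.9, 109.6 and 131 FPKM (log2 difference 2.02, SE 0.31, adjusted p = 0.00296). Pkp2, the plaque protein of simple epithelia, ran the other way, at 2.82 and 3.35 FPKM against 10.6, 11.99 and 22.4 FPKM (log2 difference 1.898, SE 0.39, adjusted p = 0.00994). In the 3 basal-high genes every Sca-1+ luminal library lay below both basal libraries, with Sca-1+ luminal 3 the lowest in Cdh3, and the calls of Cdh3, Pkp1 and Perp held with any 1 library left out, unlike that of Pkp2 (adjusted p = 0.0826 without basal 1 and 0.0691 without basal 2). E-cadherin, Cdh1, stood at 664 and 758 FPKM against 209.8, 442 and 571 FPKM and was not called (adjusted p = 0.37).

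Of 16 claudins and tight junction genes, 5 were called higher in Sca-1+ luminal and 1 higher in basal, against 15.3% and 4.34% of all genes. The former count was 3 without basal 1, and the latter 0 without basal 2, and 2 without Sca-1+ luminal 3. Cldn1 was the basal one, at 460.5 and 425 FPKM against 14.6, 32.3 and 4.99 FPKM (log2 difference 4.93, SE 0.88, adjusted p = 0.00533). Cldn3 stood at 14.6 and 46.6 FPKM against 231, 525 and 817 FPKM (log2 difference 4.09, SE 0.80, adjusted p = 0.00786). Cldn10 stood at 5.96 and 8.77 FPKM against 62.05, 77.8 and 167 FPKM (log2 difference 3.51, SE 0.42, adjusted p = 0.000964). Both were highest in Sca-1+ luminal 3. Cldn8 and Cldn23 were the other claudins called, at 4.23 and 2.55 against 29, 24.3 and 29.1 FPKM and 0.996 and 2.02 against 7.72, 20.1 and 24.6 FPKM. Tjp3, the scaffold protein ZO-3, was listed at 0 in both basal and both stromal libraries and stood at 5.06, 8.18 and 13.8 FPKM across Sca-1+ luminal ones (adjusted p = 0.00125). Cldn4 was the most abundant claudin in both groups, at 2065 and 3072 FPKM against 564, 968 and 2579 FPKM, with overlapping values. Stromal libraries held 8.42 and 36.8 FPKM of Cldn3 and 16.02 and 16.96 FPKM of Cldn10, under every Sca-1+ luminal library. Leaving out 1 library ended the calls of Cldn1 (adjusted p = 0.0502 without basal 2), Cldn3 (adjusted p = 0.0874 without basal 1) and Cldn23 (adjusted p = 0.0581 without basal 1), whereas those of Cldn10, Tjp3 and Cldn8 held under every alternative tried.

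Of 8 transcription factors of the basal layer tested, 4 were called higher in basal and none in Sca-1+ luminal, and the count was 1 without basal 1, and 2 without basal 2. The all-gene shares in these directions were 4.34% and 15.3%. Trp63, which encodes p63, stood at 40.7 and 8.096 FPKM in basal libraries 1 and 2 and 1.04, 1.14 and 0.509 FPKM in the Sca-1+ luminal group (log2 difference 3.38, SE 0.53, adjusted p = 0.00302). Basal 1 held several times the Trp63 of basal 2, and both lay above the other 8 libraries, where the highest value was that of Sca-1+ luminal 2. Snai2, the Slug repressor, stood at 55.9 and 12.7 FPKM against 4.81, 1.78 and 0.627 FPKM (log2 difference 3.23, SE 0.66, adjusted p = 0.00935), with the same order of the 2 basal libraries. The AP-2 factors differed less. Tfap2c stood at 20.2 and 16.9 FPKM against 7.003, 7.68 and 2.61 FPKM (log2 difference 1.62, SE 0.40, adjusted p = 0.0212). Tfap2a stood at 6.12 and 8.28 FPKM against 2.796, 2.49 and 2.46 FPKM (log2 difference 1.18, adjusted p = 0.0474). Of the 4 calls only that of Trp63 held under every alternative tried, and those lost with a library left out were Snai2 (adjusted p = 0.0919 without basal 1), Tfap2c (adjusted p = 0.136 without basal 1 and 0.105 without basal 2) and Tfap2a (adjusted p = 0.0509 to 0.264 without any one of basal 1, basal 2, Sca-1+ luminal 1, Sca-1+ luminal 2, Sca-1+ luminal 3, Sca-1- luminal 1, Sca-1- luminal 2, stromal 1 or stromal 2). Twist2, a mesenchymal factor in the list, stood at 4.83 and 1.56 FPKM against 11.5, 9.98 and 1.24 FPKM and 21.8 and 27.9 FPKM in stromal libraries.

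Of 17 luminal transcription factors, 6 were called higher in Sca-1+ luminal and none in basal, against 15.3% and 4.34% of all genes. Their median was 1.09 toward Sca-1+ luminal. The count was 3 under each rescaling, and 2 without basal 1, 1 without basal 2, and 3 without Sca-1+ luminal 2 or Sca-1- luminal 1. Gata2, a zinc finger transcription factor of the GATA family, stood at 2.96 and 2.79 FPKM in basal libraries 1 and 2 and 45.7, 36.4 and 33.02 FPKM in the Sca-1+ luminal group (log2 difference 3.33, SE 0.26, adjusted p = 0.000177). The libraries of each group lay close together, the call of Gata2 held under every alternative tried, and stromal libraries held 26.6 and 22.01 FPKM. Elf3, an epithelial ETS factor, stood at 33.5 and 30.7 FPKM against 96.01, 262 and 408 FPKM (log2 difference 2.72, SE 0.60, adjusted p = 0.0134). The prostate ETS factor Spdef stood at 0.805 and 0.821 FPKM against 4.77, 7.17 and 3.22 FPKM (log2 difference 1.69, SE 0.31, adjusted p = 0.00602). Elf3 was highest in Sca-1+ luminal 3 and Spdef in Sca-1+ luminal 2. Creb3l1 stood at 1.18 and 1.201 FPKM against 27.6, 14.6 and 2.42 FPKM, with 38.9 and 45.4 FPKM in stromal libraries, and it was not called against Sca-1+ luminal 3 alone (adjusted p = 0.256). Its call was also lost under both rescalings. Hoxb13 and Ehf were the remaining calls, at 20.6 and 8.72 against 46.7, 43.98 and 28.9 FPKM and 23.2 and 17.6 against 35.4, 41.4 and 58.1 FPKM, and both were lost under the rescalings. Fits without 1 library ended the calls of Elf3 (adjusted p = 0.0817 without basal 1 and 0.1 without basal 2), Spdef (adjusted p = 0.0509 without basal 1 and 0.057 without basal 2), Creb3l1 (adjusted p = 0.0537 to 0.181 without any one of basal 1, basal 2, Sca-1+ luminal 1, Sca-1+ luminal 2, Sca-1- luminal 1, Sca-1- luminal 2, Sca-1- luminal 3, stromal 1 or stromal 2), Hoxb13 (adjusted p = 0.0579 to 0.291 without any one of basal 2, Sca-1+ luminal 1, Sca-1+ luminal 2 or Sca-1- luminal 1) and Ehf (adjusted p = 0.0656 to 0.254 without any one of basal 1, basal 2, Sca-1+ luminal 2, Sca-1+ luminal 3 or Sca-1- luminal 1). Foxa1, a pioneer factor of luminal cells, stood at 155 and 98.6 FPKM against 49.8, 88.99 and 167 FPKM, with overlapping groups. Sca-1- luminal libraries held 207, 133 and 277 FPKM of Hoxb13, above every library of the comparison.

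Notch ligands were higher in basal cells. Of 14 Notch pathway genes, 4 were called higher in basal and none in Sca-1+ luminal, against 4.34% and 15.3% of all genes. The 4 were the ligands Dll1, Jag1 and Jag2 and the receptor Notch1. Dll1 stood at 53.4 and 32.95 FPKM against 2.002, 2.54 and 0.9901 FPKM (log2 difference 3.96, SE 0.35, adjusted p = 0.000291). Jag2 stood at 38.2 and 17.9 FPKM against 1.61, 1.26 and 0.661 FPKM (log2 difference 3.67, SE 0.36, adjusted p = 0.000424). Jag1 stood at 45.5 and 44.8 FPKM against 11.3, 7.27 and 2.29 FPKM (log2 difference 2.73, SE 0.45, adjusted p = 0.00392). The calls of Dll1, Jag2 and Jag1 held under every alternative tried, and stromal libraries held 12.99 and 13.8 FPKM of Jag1. Notch1 stood at 13.6 and 9.61 FPKM against 4.24, 4.47 and 6.79 FPKM (log2 difference 1.03, adjusted p = 0.0251), a call that single libraries ended in the fits of Notch1 (adjusted p = 0.0578 to 0.193 without any one of basal 1, basal 2, Sca-1+ luminal 1 or Sca-1+ luminal 2). The target gene Hes1 stood at 81.9 and 68.1 FPKM against 89.8, 80.8 and 135 FPKM and was not called (adjusted p = 0.323). Heyl, another target, stood at 0.368 and 0.277 FPKM against 4.83, 3.59 and 0.644 FPKM, with 3.79 and 5.68 FPKM in stromal libraries (adjusted p = 0.0572).

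Of 14 EGF family genes, 6 were called higher in basal and 2 higher in Sca-1+ luminal, and the counts were 2 without basal 1 for the former and 1 without basal 2 for the latter. Among all genes 4.34% and 15.3% were called in these directions, so the count toward Sca-1+ luminal was near its share. The basal calls were the ligands Epgn, Nrg1, Tgfa, Ereg and Hbegf and the receptor Egfr. Epgn, epigen, stood at 14.8 and 9.52 FPKM against 0.437, 0.647 and 0.2697 FPKM (log2 difference 3.16, SE 0.31, adjusted p = 0.000424). Nrg1, a neuregulin, stood at 45.4 and 25.1 FPKM against 5.42, 7.25 and 1.72 FPKM (log2 difference 2.73, SE 0.53, adjusted p = 0.00761). Tgfa stood at 78.2 and 54.4 FPKM against 9.44, 12.4 and 25.3 FPKM (log2 difference 2.101, SE 0.42, adjusted p = 0.00829). In Epgn and Nrg1 basal 1 was the higher basal library and Sca-1+ luminal 3 the lowest of all 5. Egfr stood at 132 and 125 FPKM against 55.8, 43.01 and 24.6 FPKM (log2 difference 1.69, adjusted p = 0.0174). Egf itself ran the other way, at 1.93 and 1.698 FPKM against 23.6, 15.4 and 11.9 FPKM (log2 difference 2.62, SE 0.29, adjusted p = 0.000732), as did the neuregulin receptor Erbb3 at 1.54 and 0.894 FPKM against 5.03, 5.24 and 8.93 FPKM (log2 difference 1.72, adjusted p = 0.00375). Sca-1- luminal libraries held 92.9, 76.3 and 106 FPKM of Egf, above every Sca-1+ luminal library. The calls of Epgn, Ereg and Egf held under every alternative tried, and those ended by leaving out a library were Nrg1 (adjusted p = 0.0834 without basal 1), Tgfa (adjusted p = 0.0865 without basal 1), Hbegf (adjusted p = 0.0618 to 0.198 without any one of basal 1, basal 2, Sca-1+ luminal 1, Sca-1+ luminal 2, Sca-1- luminal 1, stromal 1 or stromal 2), Egfr (adjusted p = 0.106 without basal 1 and 0.106 without basal 2) and Erbb3 (adjusted p = 0.0542 without basal 2).

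Of 23 TGF-beta and BMP genes, 2 were called higher in basal and 3 higher in Sca-1+ luminal, within 2 genes of the all-gene shares of 4.34% and 15.3%. The former numbered 0 without basal 2. The latter numbered 1 and 0 under the rescalings, 0 against Sca-1+ luminal 3 alone, and 0 without basal 1, basal 2, Sca-1+ luminal 1, Sca-1+ luminal 2, Sca-1- luminal 1, stromal 1 or stromal 2, and 11 without Sca-1+ luminal 3. Tgfb1 stood at 36.6 and 58.1 FPKM against 10.4, 11.8 and 3.15 FPKM (log2 difference 2.48, SE 0.47, adjusted p = 0.0072). Bmp3 stood at 6.39 and 12.7 FPKM against 0.732, 1.59 and 0.950 FPKM (log2 difference 2.28, SE 0.42, adjusted p = 0.00613). The activin subunit gene Inhbb stood at 0.549 and 1.06 FPKM against 7.85, 11.6 and 5.18 FPKM (log2 difference 2.305, adjusted p = 0.0464) and 6.62 and 14.9 FPKM in stromal libraries. These 3 calls were lost with a library left out, Tgfb1 (adjusted p = 0.0848 without basal 2), Bmp3 (adjusted p = 0.076 without basal 2) and Inhbb (adjusted p = 0.0608 to 0.212 without any one of basal 1, basal 2, Sca-1+ luminal 1, Sca-1+ luminal 2, Sca-1- luminal 1, stromal 1 or stromal 2). The growth factor Bmp4 stood at 1.18 and 0.966 FPKM against 22.7, 10.9 and 1.49 FPKM and 23.1 and 21.4 FPKM in stromal libraries (adjusted p = 0.0743). Bmp4 ordered the Sca-1+ luminal libraries as the fibroblast markers did, and their part in it was not tested. Among 10 Wnt ligands the only call was Wnt2, against 15.3% of all genes called higher in Sca-1+ luminal. Wnt2 stood at 0.968 and 0.905 FPKM against 25.1, 11.4 and 2.48 FPKM with 36.5 and 55.2 FPKM in stromal libraries. Without Sca-1+ luminal 1 the count stayed at 1, but Wnt2 itself lost its call (adjusted p = 0.0622). The count was 0 under both rescalings and 0 without basal 1, basal 2, Sca-1+ luminal 2, Sca-1- luminal 1, Sca-1- luminal 2, stromal 1 or stromal 2, and 3 without Sca-1+ luminal 3. Wnt4 stood at 5.21 and 2.899 FPKM against 6.69, 13 and 28.2 FPKM, the reverse order of libraries, and was called against Sca-1+ luminal 3 alone (log2 difference 2.57, adjusted p = 0.0256).

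Among all genes, 4181 of 12479 had a positive difference, 14.8% had groups apart toward basal and 4.34% were called higher in basal. Hypoxia and glycolysis genes leaned to basal cells: all 24 tested had a positive difference, that of Slc16a3 only through a listed 0 given below. The groups did not overlap in 17, and 6 were called higher in basal. The median log2 difference was 0.85, no member was called in the other direction, and the count was 1 without basal 1, and 2 without basal 2. Against Sca-1+ luminal 3 alone, 11 of the 24 were called higher in basal. Car9, a carbonic anhydrase that marks hypoxia, stood at 36.5 and 37.98 FPKM in basal libraries 1 and 2 and 1.48, 3.55 and 0.299 FPKM in the Sca-1+ luminal group (log2 difference 3.97, SE 0.48, adjusted p = 0.00109), a call that held under every alternative tried. Egln3, an oxygen sensor, stood at 289 and 264 FPKM against 21.2, 34.3 and 15.9 FPKM (log2 difference 3.55, SE 0.73, adjusted p = 0.00958). Adm, the peptide adrenomedullin, stood at 421 and 269.6 FPKM against 94.8, 82.5 and 18.8 FPKM (log2 difference 2.64, SE 0.74, adjusted p = 0.0334). In all 3, Sca-1+ luminal 3 was the lowest library. A basal library left out ended the calls of Egln3 (adjusted p = 0.0736 without basal 1 and 0.0741 without basal 2) and Adm (adjusted p = 0.187 without basal 1 and 0.122 without basal 2). Slc16a3, a lactate exporter, was listed at 0 in Sca-1+ luminal 3, which may be a failed estimate. It stood at 24.9 and 49.4 FPKM in basal, 57.3 and 38.7 FPKM in Sca-1+ luminal 1 and 2, and 53.3 and 132 FPKM in stromal libraries. Sca-1+ luminal 1 lay above both basal libraries and Sca-1+ luminal 2 between them, so the positive difference of Slc16a3 rests on that 0. Core enzymes differed little, with Aldoa at 615 and 729.9 FPKM against 381, 589 and 679 FPKM and Ldha at 682 and 774 FPKM against 508, 519 and 511 FPKM, neither of them called.

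Several contractile genes were higher in basal cells, against all-gene shares of 4.34% called higher in basal and 15.3% in Sca-1+ luminal. Of 13 actin and myoepithelial-type contractile genes, 4 were called higher in basal and none in Sca-1+ luminal, and the count was 1 without basal 1, and 0 without basal 2. Tpm2, a tropomyosin, stood at 259.9 and 552 FPKM against 35.5, 93.6 and 6.91 FPKM (log2 difference 3.66, SE 0.90, adjusted p = 0.0208). Flna, filamin A, stood at 271 and 381 FPKM against 78.8, 77.02 and 56.5 FPKM (log2 difference 2.18, SE 0.40, adjusted p = 0.00629). Cnn2, a calponin of non-muscle cells, stood at 294 and 384 FPKM against 61.2, 107 and 116 FPKM (log2 difference 1.87, SE 0.54, adjusted p = 0.0392). Basal 2 was the higher basal library in each, and fits without a library ended the calls of Tpm2 (adjusted p = 0.0729 without basal 1 and 0.168 without basal 2), Flna (adjusted p = 0.0748 without basal 2) and Cnn2 (adjusted p = 0.061 to 0.217 without any one of basal 1, basal 2, Sca-1+ luminal 1, Sca-1+ luminal 2 or Sca-1- luminal 1). The smooth muscle actin genes did not separate the groups: Acta2 stood at 26.9 and 49.5 FPKM against 91.5, 111 and 7.51 FPKM and Actg2 at 3.26 and 5.97 FPKM against 15.6, 29.1 and 1.39 FPKM, with the lowest value in Sca-1+ luminal 3. Of 8 smooth muscle markers tested, Smtn was called higher in basal and none in Sca-1+ luminal. Leaving out a library ended the call of Smtn (adjusted p = 0.0576 to 0.196 without any one of basal 1, basal 2, Sca-1+ luminal 2, Sca-1- luminal 1, Sca-1- luminal 2, Sca-1- luminal 3, stromal 1 or stromal 2), and without Sca-1+ luminal 3, 5 of the 8 were called higher in Sca-1+ luminal. The 9 markers listed summed to 278.7 and 362.7 FPKM in basal, 343.5, 443.3 and 35.32 FPKM in Sca-1+ luminal 1, 2 and 3, and 229.7 and 390.2 FPKM in stromal libraries.

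Slco4a1 and Sult5a1 were also among the 10 genes with the largest differences toward basal cells. Slco4a1, an organic anion transporter, stood at 164 and 162 FPKM against 5.44, 8.62 and 0.314 FPKM (log2 difference 5.24, SE 0.76, adjusted p = 0.00218). Sult5a1, a sulfotransferase, stood at 187 and 164 FPKM against 15.9, 10.9 and 2.18 FPKM (log2 difference 4.35, SE 0.57, adjusted p = 0.00145). In both, Sca-1+ luminal 3 held the least. The prostaglandin transporter Slco2a1 stood at 155 and 151 FPKM against 17.2, 13.5 and 18.6 FPKM (log2 difference 3.15, SE 0.35, adjusted p = 0.000696). Odc1, the rate-limiting enzyme of polyamine synthesis, stood at 295 and 439 FPKM against 47.9, 85.6 and 25.8 FPKM (log2 difference 2.899, SE 0.45, adjusted p = 0.00303). The calls of Slco4a1, Sult5a1, Slco2a1 and Odc1 held under every alternative tried. Ceruloplasmin, Cp, which is listed among proximal luminal markers, was higher in basal, at 168 and 127 FPKM against 41.9, 27.2 and 5.005 FPKM (log2 difference 2.93, SE 0.68, adjusted p = 0.0168), with 61.6 and 75.2 FPKM in stromal libraries, and the call was lost with a basal library left out, Cp (adjusted p = 0.115 without basal 1 and 0.0905 without basal 2).

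Most markers of the proximal luminal cells were higher in Sca-1+ luminal cells. Of 16 tested, 10 were called higher in Sca-1+ luminal and 1 higher in basal, against 15.3% and 4.34% of all genes. All 10 lay above both stromal libraries. The median was 2.95 toward Sca-1+ luminal, and against Sca-1+ luminal 3 alone the count was again 10. Psca averaged 24.4 ± 23.4 FPKM (SD, n = 2) in basal and 1736 ± 1477 FPKM (SD, n = 3) in Sca-1+ luminal cells, a ratio of 71.2. Nupr1, a stress-responsive nuclear protein, stood at 24.9 and 83.9 FPKM in basal libraries 1 and 2 and 832, 1897 and 2352 FPKM in the Sca-1+ luminal group (log2 difference 5.05, SE 0.76, adjusted p = 0.00254), and its range in Sca-1- luminal libraries was alike, at 1959, 3130 and 658 FPKM. Lrrc26, a potassium channel subunit, stood at 0.926 and 1.505 FPKM against 23.7, 28.9 and 72.5 FPKM (log2 difference 4.11, SE 0.44, adjusted p = 0.000587). Clu, the chaperone clusterin, stood at 179.7 and 378 FPKM against 1384, 2516 and 8331 FPKM (log2 difference 3.55, adjusted p = 0.0108). Wfdc2, a secreted protease inhibitor, stood at 12.2 and 22.2 FPKM against 73.4, 274 and 579 FPKM (log2 difference 3.704, adjusted p = 0.0127). Psca, Krt4, Clu and Wfdc2 were lowest in Sca-1+ luminal 1 and highest in Sca-1+ luminal 3, the reverse of the fibroblast markers, and the part of stromal RNA in that order was not tested. Ly6d stood at 76.5 and 44.9 FPKM against 6.91, 17.6 and 55.9 FPKM, so this marker did not separate the groups. The calls of Nupr1 and Lrrc26 held under every alternative tried, and a basal library left out ended those of Clu (adjusted p = 0.104 without basal 1) and Wfdc2 (adjusted p = 0.105 without basal 1 and 0.0646 without basal 2).

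Tff3, Pglyrp1, Gsdmc3 and Cd52 were also among the 10 genes with the largest differences toward Sca-1+ luminal cells. Tff3, a trefoil peptide, was listed at 0 in both basal libraries and stood at 20.8, 56.3 and 77.3 FPKM across Sca-1+ luminal ones (adjusted p = 0.00133), with 2.28, 6.09 and 0.159 FPKM in Sca-1- luminal and 1.45 and 1.89 FPKM in stromal libraries. Pglyrp1, a protein that binds bacterial peptidoglycan, stood at 0.803 and 3.17 FPKM against 30.7, 73.2 and 270.5 FPKM (log2 difference 4.97, SE 0.81, adjusted p = 0.0037). Gsdmc3, a gasdermin, stood at 0.104 and 0.658 FPKM against 14.1, 42.03 and 118 FPKM (log2 difference 4.98, SE 0.68, adjusted p = 0.00171), with under 1 FPKM in each library of the other 3 groups. Cd52, a small surface glycoprotein of lymphocytes and of the male genital tract, stood at 4.15 and 8.77 FPKM against 172, 334 and 191 FPKM (log2 difference 4.98, SE 0.62, adjusted p = 0.00119), and Sca-1- luminal libraries held 365, 96.4 and 492 FPKM. Tff3, Pglyrp1 and Gsdmc3 were highest in Sca-1+ luminal 3, and Cd52 in Sca-1+ luminal 2. The calls of Tff3, Pglyrp1, Gsdmc3 and Cd52 held under every alternative tried. Gsdmc3 has near copies, so its reads may belong in part to them.

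Apical membrane genes followed. Among all 12479 genes, 15.3% were called higher in Sca-1+ luminal, 1139 genes also above both stromal libraries, and 4.34% higher in basal. Of 11 apical and glycocalyx genes, 5 were called higher in Sca-1+ luminal, all above both stromal libraries, and none higher in basal, and the count was 3 without basal 2. Tspan8 stood at 4.71 and 11.6 FPKM against 70.9, 226 and 622 FPKM (log2 difference 4.68, SE 0.72, adjusted p = 0.00292). Tspan1, like it a tetraspanin of epithelial surfaces, stood at 15.2 and 23.03 FPKM against 210.5, 321 and 639 FPKM (log2 difference 4.16, SE 0.45, adjusted p = 0.000629). Prom1, prominin of apical protrusions, stood at 2.97 and 2.27 FPKM against 29.1, 24.5 and 32.4 FPKM (log2 difference 3.03, SE 0.30, adjusted p = 0.000424). Both tetraspanins were highest in Sca-1+ luminal 3, whereas Prom1 was level across the group. The polarity gene Crb3 stood at 9.34 and 14.7 FPKM against 20.9, 42.7 and 74.2 FPKM, with no overlap but an adjusted p of 0.0795. Epcam, a marker of all epithelium, stood at 495 and 842 FPKM against 299, 878 and 1064 FPKM, and Slc9a3r1 at 37.1 and 35.5 FPKM against 28.3, 33.6 and 40.7 FPKM, neither of them called. The calls of Tspan8, Tspan1 and Prom1 held under every alternative tried.

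Of 7 urothelial markers, 4 were called higher in Sca-1+ luminal, against 15.3% of all genes, and all 4 lay above both stromal libraries. Upk1a, a uroplakin of the bladder surface membrane, stood at 4.66 and 8.48 FPKM against 61.1, 105 and 152 FPKM (log2 difference 3.77, SE 0.40, adjusted p = 0.000585). Upk1b, another uroplakin, stood at 9.06 and 5.71 FPKM against 51.9, 64.6 and 145 FPKM (log2 difference 3.28, SE 0.44, adjusted p = 0.00164). The calls of Upk1a and Upk1b held under every alternative tried, and Sca-1- luminal libraries held 192, 153 and 192 FPKM of Upk1a. Upk2 stood at 0.0632 and 0.464 FPKM against 1.94, 5.67 and 17.3 FPKM (log2 difference 2.51, adjusted p = 0.0207), and single libraries ended the call of Upk2 (adjusted p = 0.137 without basal 1, 0.0971 without basal 2 and 0.0526 without Sca-1+ luminal 2). Upk3a was listed at 0 in basal and stromal libraries and lay at 1.08, 1.17 and 1.21 FPKM across Sca-1+ luminal ones (adjusted p = 0.00266), a call that held in every alternative but the 5 FPKM filter, which left the gene out. Upk3b was high in Sca-1+ luminal 1 only, at 25.1, 1.35 and 0.0483 FPKM in Sca-1+ luminal 1, 2 and 3 against 0.904 and 0.656 FPKM in basal, and its difference had the opposite sign against Sca-1+ luminal 3 alone. Krt20, the keratin of umbrella cells, stood at 2.19 and 3.597 FPKM against 2.197, 2.34 and 0.328 FPKM and was not called.

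Several secretory genes were higher in Sca-1+ luminal cells, against all-gene shares of 15.3% called higher in Sca-1+ luminal and 4.34% in basal. Of 16 prostate secretory proteins, 7 were called higher in Sca-1+ luminal, all above both stromal libraries, and none higher in basal, and the count was 4 without basal 1 or basal 2. Tgm4, the transglutaminase of the prostatic plug, stood at 207 and 159 FPKM against 1009, 787 and 903 FPKM (log2 difference 2.297, SE 0.40, adjusted p = 0.00466), with 5498, 5032 and 6819 FPKM in Sca-1- luminal libraries. Crisp1, a cysteine-rich secretory protein, stood at 0.626 and 0.439 FPKM against 30.6, 26.04 and 34.2 FPKM (log2 difference 4.35, SE 0.56, adjusted p = 0.00133) and was lower in Sca-1- luminal libraries, at 14.1, 1.99 and 4.98 FPKM. Basal libraries thus held Tgm4 well above 1 FPKM and Crisp1 below it, in both cases under every luminal library. The source of these transcripts in basal libraries was not tested. Wfdc15b stood at 0.506 and 2.95 FPKM against 33.8, 128 and 66.3 FPKM (log2 difference 4.78, SE 1.11, adjusted p = 0.0164). Pbsn, probasin, stood at 386 and 787 FPKM against 1842, 4001 and 2578 FPKM, with no overlap and an adjusted p of 0.0505. The call of Crisp1 held under every alternative tried, and a library left out ended those of Tgm4 (adjusted p = 0.0646 without basal 2) and Wfdc15b (adjusted p = 0.13 without basal 1, 0.0675 without basal 2 and 0.0538 without Sca-1+ luminal 2).

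Sca-1+ luminal 3 stood apart in 3 of these genes. Spink1, a trypsin inhibitor, stood at 1504 and 2133 FPKM in basal libraries 1 and 2 and 7848, 13620 and 7.96 FPKM in the Sca-1+ luminal group, with 128900, 122200 and 84220 FPKM in Sca-1- luminal libraries. Sbpl stood at 38.6 and 71.5 FPKM against 361, 474 and 0.664 FPKM and Msmb at 227 and 423 FPKM against 569, 1223 and 52.1 FPKM. In each of the 3, Sca-1+ luminal 1 and 2 lay above both basal libraries and Sca-1+ luminal 3 below them. Against Sca-1+ luminal 3 alone all 3 were called higher in basal, with log2 differences of 7.64, 5.01 and 2.55, and without Sca-1+ luminal 3 the difference of Spink1 was 2.53 in the other direction. Defb50, a defensin-family gene, also had its lowest value in Sca-1+ luminal 3, at 1093 and 1572 FPKM against 1073, 3270 and 475 FPKM, with Sca-1+ luminal 1 just under the lower basal library. Sbpl, Msmb and Defb50 were chosen after their values were seen, and Sbpl has near copies.

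Of 7 seminal vesicle genes tested, 4 were called higher in Sca-1+ luminal, and the count was 0 against Sca-1+ luminal 3 alone and 0 without basal 1 or basal 2. The share of all genes called higher in Sca-1+ luminal was 15.3%. Svs2, semenogelin-like, stood at 31.5 and 26.3 FPKM in basal libraries 1 and 2 and 2875, 1484 and 1665 FPKM in the Sca-1+ luminal group (log2 difference 6.01, SE 1.18, adjusted p = 0.00809). Svs5 stood at 63.7 and 35.6 FPKM against 3668, 1692 and 2150 FPKM (log2 difference 5.61, SE 1.14, adjusted p = 0.00942). All 3 Sca-1+ luminal libraries were far above both basal libraries in these genes. Pate4 stood at 7.99 and 12.5 FPKM against 415, 629.6 and 392 FPKM (log2 difference 5.41, SE 1.15, adjusted p = 0.0115). Svs4 stood at 9.73 and 5.88 FPKM against 210.1, 211 and 265 FPKM (log2 difference 4.73, SE 1.15, adjusted p = 0.0195). The 8 genes of the list summed to 112.9 and 80.35 FPKM in basal, 7176, 4020 and 4475 FPKM in Sca-1+ luminal, and 18900, 1401 and 42650 FPKM in Sca-1- luminal libraries. Stromal libraries held 139.1 and 119.3 FPKM, above both basal libraries. The spread within the Sca-1- luminal group enters the error of these tests, and a basal library left out ended the calls of Svs2 (adjusted p = 0.0577 without basal 1 and 0.0741 without basal 2), Svs5 (adjusted p = 0.0549 without basal 1 and 0.0929 without basal 2), Pate4 (adjusted p = 0.0896 without basal 1 and 0.0739 without basal 2) and Svs4 (adjusted p = 0.0912 without basal 1, 0.139 without basal 2 and 0.0509 without Sca-1+ luminal 2). All Svs and Pate genes have near copies.

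Androgen-responsive genes gave few calls, in both directions. Of all genes, 15.3% were called higher in Sca-1+ luminal and 4.34% higher in basal, and the basal count here lay near that share. Of 15, 4 were called higher in Sca-1+ luminal and 1, Odc1, higher in basal, and the former count was 2 without basal 2. Tmprss2, a surface protease, stood at 9.01 and 7.03 FPKM against 28.8, 40.4 and 102 FPKM (log2 difference 2.49, SE 0.47, adjusted p = 0.00683). Homer2, a scaffold protein, stood at 1.01 and 1.08 FPKM against 8.07, 10.6 and 6.17 FPKM (log2 difference 2.15, SE 0.30, adjusted p = 0.00183). The call of Homer2 held under every alternative tried, and that of Tmprss2 (adjusted p = 0.0729 without basal 2) did not hold with a library left out.

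Galectins, sugar-binding proteins, showed 1 gene for basal and 4 for Sca-1+ luminal cells among 7 tested, against 4.34% and 15.3% of all genes. Beside Lgals7 in basal, Lgals3bp stood at 2.18 and 4.29 FPKM against 59.8, 44.99 and 33.3 FPKM (log2 difference 3.48, SE 0.37, adjusted p = 0.000625). Lgals9 stood at 2.12 and 5.04 FPKM against 72.9, 73.3 and 14.1 FPKM (log2 difference 3.33, SE 0.76, adjusted p = 0.0153). Lgals8 was listed at 0 in both basal libraries and at 11.5, 14.4 and 10.3 FPKM across Sca-1+ luminal ones (adjusted p = 0.000262). Lgals1 stood at 13.3 and 23.8 FPKM against 241, 213 and 39.5 FPKM (log2 difference 2.77, adjusted p = 0.0217). None of these 4 lay above the stromal level, which was 49.4 and 100.4 FPKM for Lgals3bp and 87.7 and 178 FPKM for Lgals9. Against Sca-1+ luminal 3 alone the Sca-1+ luminal count was 2, and it was 2 without basal 1, basal 2 or Sca-1+ luminal 2, as the calls of Lgals9 (adjusted p = 0.125 without basal 1, 0.0649 without basal 2 and 0.0514 without Sca-1+ luminal 2) and Lgals1 (adjusted p = 0.154 without basal 1, 0.085 without basal 2 and 0.0687 without Sca-1+ luminal 2) were lost. Those of Lgals3bp and Lgals8 held with any 1 library left out.

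Water and ion transport genes were higher in Sca-1+ luminal cells in 5 of 14 cases, all 5 above both stromal libraries, and in none for basal, and the count was 2 without basal 1 or basal 2. The all-gene shares were 15.3% called higher in Sca-1+ luminal and 4.34% higher in basal. Aqp5, a water channel of secretory glands, stood at 0.375 and 0.461 FPKM in basal libraries 1 and 2 and 10.5, 12.7 and 40.8 FPKM in the Sca-1+ luminal group (log2 difference 3.73, SE 0.53, adjusted p = 0.00212). Slc12a2, the sodium-potassium-chloride cotransporter of secreting epithelia, stood at 18.96 and 15.04 FPKM against 94.6, 98.97 and 211 FPKM (log2 difference 2.82, SE 0.39, adjusted p = 0.00186). The sodium channel subunit Scnn1a stood at 1.89 and 1.51 FPKM against 7.34, 12.8 and 38.9 FPKM (log2 difference 2.63, SE 0.56, adjusted p = 0.0113). All 3 were highest in Sca-1+ luminal 3. Aqp3, the aquaglyceroporin of basal membranes, ran the other way at 164 and 331 FPKM against 17.6, 72.6 and 25.3 FPKM, with no overlap but an adjusted p of 0.0623. The calls of Aqp5 and Slc12a2 held under every alternative tried, and a basal library left out ended that of Scnn1a (adjusted p = 0.0685 without basal 1 and 0.0941 without basal 2).

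Of 22 glutathione and detoxification genes, 8 were called higher in Sca-1+ luminal and 1 higher in basal, and the former count was 5 without basal 1, and 4 without basal 2. The shares of all genes in these directions were 15.3% and 4.34%, and the basal count was near its share. Cyp2f2, a cytochrome P450 of airway club cells, stood at 36.96 and 22.9 FPKM against 134, 245 and 669 FPKM (log2 difference 3.22, SE 0.59, adjusted p = 0.00599), with 3.88 and 7.07 FPKM in stromal libraries. Gsta3 stood at 4.66 and 4.07 FPKM against 17.8, 38.6 and 68.5 FPKM (log2 difference 2.798, SE 0.47, adjusted p = 0.00395). The carbonyl reductase Cbr1 stood at 5.299 and 6.35 FPKM against 37.3, 45.3 and 54.3 FPKM (log2 difference 2.76, SE 0.24, adjusted p = 0.000256). The calls of Gsta3 and Cbr1 held under every alternative tried, and all 3 genes were highest in Sca-1+ luminal 3. Gpx3, the secreted glutathione peroxidase, stood at 11.2 and 11.8 FPKM against 1172, 387 and 50.9 FPKM (log2 difference 4.52, SE 1.02, adjusted p = 0.0146), in the order of the fibroblast markers and with 1767 and 818 FPKM in stromal libraries. It was still called against Sca-1+ luminal 3 alone, with a log2 difference of 2.06 (adjusted p = 0.0322). Gpx1, the cytosolic peroxidase, was the basal call, at 1293 and 914 FPKM against 323, 336 and 306 FPKM (log2 difference 1.75, SE 0.28, adjusted p = 0.00339). Leaving out a library ended the calls of Gpx3 (adjusted p = 0.0924 without basal 1 and 0.0974 without basal 2) and Cyp2f2 (adjusted p = 0.0715 without basal 2) and not that of Gpx1.

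Of 13 retinoid genes, 3 were called higher in Sca-1+ luminal and 1 higher in basal, within 2 genes of the all-gene shares of 15.3% and 4.34%. The former count was 1 without basal 1, 0 without basal 2, and 5 without Sca-1+ luminal 3, and the latter 0 without basal 1, basal 2 or Sca-1+ luminal 2. Rdh10, which makes retinal, stood at 17.7 and 11.5 FPKM against 67.9, 71.5 and 72.7 FPKM (log2 difference 2.23, SE 0.37, adjusted p = 0.00384), level across the 3 Sca-1+ luminal libraries, and 74.8 and 158 FPKM in stromal libraries. Aldh1a2, which makes retinoic acid, stood at 0.428 and 0.517 FPKM against 8.03, 6.03 and 1.88 FPKM. The carrier gene Rbp4 stood at 0.117 and 0 FPKM against 9.65, 5.41 and 1.12 FPKM. Both ordered the Sca-1+ luminal libraries as the fibroblast markers did and were not called against Sca-1+ luminal 3 alone (adjusted p = 0.0596 and 0.0672). Aldh1a3 stood at 22.5 and 49.3 FPKM against 65.2, 149 and 160.4 FPKM (adjusted p = 0.0779). Rdh11 was the basal call, at 14.6 and 13.1 FPKM against 7.12, 6.69 and 7.53 FPKM (log2 difference 0.87, adjusted p = 0.0212). A library left out ended the calls of Rdh10 (adjusted p = 0.0545 without basal 2), Aldh1a2 (adjusted p = 0.0876 without basal 1 and 0.0851 without basal 2), Rbp4 (adjusted p = 0.0958 without basal 1, 0.124 without basal 2 and 0.0577 without Sca-1+ luminal 2) and Rdh11 (adjusted p = 0.144 without basal 1, 0.107 without basal 2 and 0.0684 without Sca-1+ luminal 2).

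Of 14 prostaglandin genes, 2 were called each way, against 4.34% of all genes toward basal and 15.3% toward Sca-1+ luminal, and the counts were 1 without basal 1, basal 2 or Sca-1+ luminal 2 for basal and 1 without basal 1, basal 2, Sca-1- luminal 1, stromal 1 or stromal 2, and 4 without Sca-1+ luminal 3 for Sca-1+ luminal. The basal calls include Slco2a1, given above. Ptgds, prostaglandin D synthase, stood at 0.141 and 0.7395 FPKM against 19.2, 9.46 and 2.03 FPKM (log2 difference 2.61, adjusted p = 0.0339), with 11.4 and 17.99 FPKM in stromal libraries. Its Sca-1+ luminal libraries stood in the order of the fibroblast markers, it was not called against Sca-1+ luminal 3 alone (adjusted p = 0.295), and single libraries ended the call of Ptgds (adjusted p = 0.0512 to 0.188 without any one of basal 1, basal 2, Sca-1+ luminal 1, Sca-1+ luminal 2, Sca-1- luminal 1, stromal 1 or stromal 2). The degrading enzyme gene Hpgd stood at 12.02 and 1.903 FPKM against 22.8, 19.4 and 40.7 FPKM, with no overlap but an adjusted p of 0.0809.

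Of 13 coagulation and plasminogen activator genes, 3 were called higher in Sca-1+ luminal, a share near the 15.3% of all genes, and none in basal, and none of the 3 lay above the stromal level. The count was 0 against Sca-1+ luminal 3 alone and 0 without basal 1, 1 without basal 2, and 5 without Sca-1+ luminal 3. Plat, tissue plasminogen activator, stood at 18.1 and 51.7 FPKM against 1014, 902 and 346 FPKM and 1092 and 2031 FPKM in stromal libraries (log2 difference 4.43, SE 0.95, adjusted p = 0.0121). Its value in Sca-1+ luminal 3 was still several times the basal level, but the fit of that library alone gave an adjusted p of 0.113. Serpine2 stood at 19.04 and 12.2 FPKM against 338, 145 and 52.6 FPKM (log2 difference 3.09, adjusted p = 0.012). A library left out ended the calls of Plat (adjusted p = 0.112 without basal 1) and Serpine2 (adjusted p = 0.0577 without basal 1 and 0.11 without basal 2). Thbd, thrombomodulin, stood at 3.34 and 5.55 FPKM against 239.5, 64.7 and 6.96 FPKM (adjusted p = 0.062). Serpinb5, maspin, was higher in both basal libraries, at 159 and 116 FPKM against 16.2, 36.3 and 71.5 FPKM (adjusted p = 0.104), and tissue factor F3 stood at 2172 and 2285 FPKM against 588, 908 and 1016 FPKM (adjusted p = 0.282).

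MHC class I and interferon genes were called higher in Sca-1+ luminal cells in 14 of 22 cases and higher in basal in none. All 22 had a negative difference. Among all genes, 8263 of 12479 had a negative difference and 15.3% were called higher in Sca-1+ luminal. None of the 14 lay above both stromal libraries. With a stromal share subtracted, 377 of all 12479 genes were called higher in Sca-1+ luminal, and the all-gene median lay 0.36 toward basal. None of the 22 was then called, and their median was 0.045 toward Sca-1+ luminal. The count was 9 under each rescaling, 3 against Sca-1+ luminal 3 alone, and 1 without basal 1, 3 without basal 2, and 6 without Sca-1+ luminal 2. Ifit1 stood at 4.63 and 6.001 FPKM against 41.3, 58.2 and 13.5 FPKM (log2 difference 2.399, SE 0.58, adjusted p = 0.0188). Ifit3 stood at 4.09 and 5.32 FPKM against 31.8, 49.5 and 10.02 FPKM (log2 difference 2.21, SE 0.63, adjusted p = 0.0351). Bst2, tetherin, stood at 5.48 and 7.198 FPKM against 34.05, 51.9 and 18.5 FPKM (log2 difference 2.18, SE 0.42, adjusted p = 0.00726). In these 3 interferon-induced genes Sca-1+ luminal 3 lay between basal and the other Sca-1+ luminal libraries, and leaving out a library ended the calls of Ifit1 (adjusted p = 0.123 without basal 1, 0.0983 without basal 2 and 0.0575 without Sca-1+ luminal 2), Ifit3 (adjusted p = 0.0579 to 0.177 without any one of basal 1, basal 2, Sca-1+ luminal 1, Sca-1+ luminal 2 or Sca-1- luminal 1) and Bst2 (adjusted p = 0.0699 without basal 1 and 0.0502 without basal 2). Oas1a was level across Sca-1+ luminal libraries, at 0.308 and 0.856 FPKM against 5.801, 7.79 and 6.89 FPKM (log2 difference 2.32, SE 0.36, adjusted p = 0.00301), and was called against Sca-1+ luminal 3 alone (adjusted p = 0.0184). B2m, the light chain of MHC class I, stood at 563 and 549.7 FPKM against 1937, 2408 and 2508 FPKM (log2 difference 2.03, adjusted p = 0.0108), and lost its call as follows, B2m (adjusted p = 0.0871 without basal 1 and 0.0965 without basal 2), whereas Oas1a kept its own with any 1 library left out. H2-K1 did not separate the groups, at 308 and 401 FPKM against 323, 412 and 396 FPKM. Among MHC class II genes, H2-DMb1 lost its call without Sca-1- luminal 1 (adjusted p = 0.0614), though the count of calls there stayed at 1. Of 6 MHC class II genes, H2-DMb1 was called, at 0.351 and 0.629 FPKM against 4.15, 1.71 and 1.66 FPKM, and the count was 0 under both rescalings and 0 without basal 1, basal 2, Sca-1+ luminal 1, Sca-1+ luminal 2 or Sca-1- luminal 3.

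Among all genes, 8263 of 12479 had a difference toward Sca-1+ luminal and 15.3% were called higher there. Of 24 ER folding and export genes, 22 had a difference toward Sca-1+ luminal and 6 were called higher in Sca-1+ luminal, of which 2 lay above both stromal libraries. With a stromal share subtracted, 377 of all 12479 genes were called higher in Sca-1+ luminal, and none of the 24 was called. Their median then lay 0.21 toward basal, and that of all genes 0.36 toward basal. The count was 3 under median-of-ratios scaling and against Sca-1+ luminal 3 alone, and 1 without basal 1 or basal 2, 2 without Sca-1+ luminal 2, and 12 without Sca-1+ luminal 3. Sec11c, a signal peptidase subunit, stood at 34.3 and 46.1 FPKM against 162, 223 and 222 FPKM (log2 difference 2.300, SE 0.31, adjusted p = 0.00171). The folding factor Creld2 stood at 21.4 and 28.9 FPKM against 92.5, 101 and 56.5 FPKM (log2 difference 1.66, SE 0.37, adjusted p = 0.0143). The call of Sec11c held with any 1 library left out, and that of Creld2 (adjusted p = 0.119 without basal 1, 0.0676 without basal 2 and 0.0505 without Sca-1+ luminal 2) did not. Hyou1 ran the other way without a call, at 14.5 and 14.8 FPKM against 9.23, 9.55 and 13.2 FPKM. Of 26 respiratory chain subunits, 2 were called higher in Sca-1+ luminal, against 15.3% of all genes. That count was 0 under median-of-ratios scaling and 0 without basal 1 or basal 2, 4 without Sca-1+ luminal 1, and 1 without Sca-1+ luminal 2. The median of 0.15 toward Sca-1+ luminal turned to 0.21 toward basal under median-of-ratios scaling. Sdha, a succinate dehydrogenase subunit, was 1 of the calls, at 34.8 and 30.02 FPKM against 65.6, 58.9 and 94.2 FPKM. That scaling ended the call, and a basal library left out also ended that of Sdha (adjusted p = 0.086 without basal 1 and 0.145 without basal 2). Of 20 cell cycle genes limma called none, 4 had an unadjusted p under 0.05, and no other tool was run. The median of 0.33 toward Sca-1+ luminal turned to 0.02 toward basal under quantile normalization, where 1 was called. Ube2c, a mitotic enzyme, stood at 1.12 and 0.123 FPKM against 2.09, 1.46 and 3.29 FPKM, and Ccnd1, cyclin D1, at 54.8 and 116 FPKM against 20.8, 50.2 and 63.6 FPKM.

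Immediate early genes, which rise with tissue handling as well as with signalling, were high in all 5 libraries. The 22 genes summed to 13610 and 7210 FPKM in basal and 9475, 7296 and 7696 FPKM in the Sca-1+ luminal group. Of the 22, 4 were called higher in Sca-1+ luminal and 1 higher in basal, shares near the 15.3% and 4.34% of all genes. The former count was 1 without basal 2 or Sca-1+ luminal 2, and the latter 0 without basal 1 or basal 2, and 2 without Sca-1- luminal 2 or Sca-1- luminal 3. Klf2 stood at 1.54 and 1.596 FPKM against 12.8, 15.6 and 7.86 FPKM (log2 difference 2.304, SE 0.35, adjusted p = 0.00275). Fos stood at 185 and 73.2 FPKM against 489, 424 and 291 FPKM (log2 difference 1.74, SE 0.50, adjusted p = 0.0364). The call of Klf2 held with any 1 library left out, and that of Fos (adjusted p = 0.0558 to 0.302 without any one of basal 2, Sca-1+ luminal 1, Sca-1+ luminal 2, Sca-1- luminal 1, stromal 1 or stromal 2) did not. The 2 basal libraries were far apart in the heat shock gene Hspa1a, at 783 and 60.8 FPKM against 769.6, 373 and 1106 FPKM. Ier3 stood at 3404 and 3070 FPKM against 1058, 1099 and 946 FPKM (adjusted p = 0.0597). Basal 1 was the higher of the 2 basal libraries in Hspa1a and Fos, as it was in Trp63 and Snai2, and the part of handling in any of these was not tested.

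Markers of other cells were read over whole lists, beside the all-gene shares of 15.3% called higher in Sca-1+ luminal and 4.34% in basal. Of the 21 fibroblast markers, 15 were called higher in Sca-1+ luminal and none higher in basal, and none of the 15 lay above the stromal level. The count was 4 against Sca-1+ luminal 3 alone, 13 and 11 under the rescalings, and 1 without basal 1 or basal 2, and 4 without Sca-1+ luminal 2. Lum, lumican, stood at 1.17 and 1.07 FPKM against 163, 51.7 and 10.3 FPKM and 368 and 154 FPKM in stromal libraries (log2 difference 4.44, SE 1.01, adjusted p = 0.0151). Dpt, dermatopontin, stood at 0.559 and 1.74 FPKM against 92.9, 28.4 and 16.5 FPKM (log2 difference 4.14, SE 0.61, adjusted p = 0.00242). Col1a2 stood at 6.82 and 9.78 FPKM against 394, 238 and 26.3 FPKM (log2 difference 3.900, SE 0.91, adjusted p = 0.017). A library left out ended the calls of Lum (adjusted p = 0.0903 without basal 1 and 0.104 without basal 2) and Col1a2 (adjusted p = 0.113 without basal 1, 0.0931 without basal 2 and 0.0559 without Sca-1+ luminal 2) and not that of Dpt. Dpt was still called against Sca-1+ luminal 3 alone (log2 difference 3.08, adjusted p = 0.00489), whereas Lum was not (adjusted p = 0.109). Dcn, decorin, the most abundant of the list, stood at 655 and 459 FPKM against 3258, 1629 and 233 FPKM, so that Sca-1+ luminal 3 held less of it than either basal library.

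By limma no endothelial or leukocyte marker was called among the 11 and 6 tested, 1 of each had an unadjusted p under 0.05, and 8 endothelial markers were called higher in Sca-1+ luminal without Sca-1+ luminal 3. The 12 endothelial markers summed to 12.42 and 16.91 FPKM in basal and 64.32, 54.26 and 10.01 FPKM in the Sca-1+ luminal group, and the 18 leukocyte markers to 15.03 and 25.42 against 25.61, 30.14 and 17.61 FPKM. Erythroid markers, mostly hemoglobin genes with near copies, summed to 7.69 and 74.3 FPKM in basal and 294.5, 214.8 and 134.7 FPKM in the Sca-1+ luminal group. In that group 2 of 5 were called higher, against 15.3% of all genes. That count was 0 without basal 1, 1 without Sca-1+ luminal 1, Sca-1+ luminal 2, Sca-1- luminal 1, Sca-1- luminal 2, stromal 1 or stromal 2, and 5 without Sca-1- luminal 3. Of 8 glia and nerve markers, 2 were called higher in basal, and the count was 1 without basal 1, basal 2, Sca-1+ luminal 1, Sca-1+ luminal 2, Sca-1- luminal 1, stromal 1 or stromal 2. The share of all genes called higher in basal was 4.34%. The 12 listed glia and nerve genes summed to 125.8 and 99.31 FPKM in basal, 248.4, 215.7 and 92.34 FPKM in Sca-1+ luminal and 288.7 and 400.0 FPKM in stromal libraries, and none was at 0. Sox10, the glial transcription factor, stood at 1.71 and 1.42 FPKM against 0.347, 0.251 and 0.208 FPKM, with no overlap but an adjusted p of 0.0577. Calca, a neuropeptide gene, was the 1 call of 2 neuroendocrine markers tested, at 0.3999 and 0.308 FPKM against 3.36, 5.52 and 2.44 FPKM (log2 difference 1.77, SE 0.29, adjusted p = 0.00363), and the call of Calca held with any 1 library left out. Its level in stromal libraries was 3.48 and 3.18 FPKM.

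**Figure D4:**
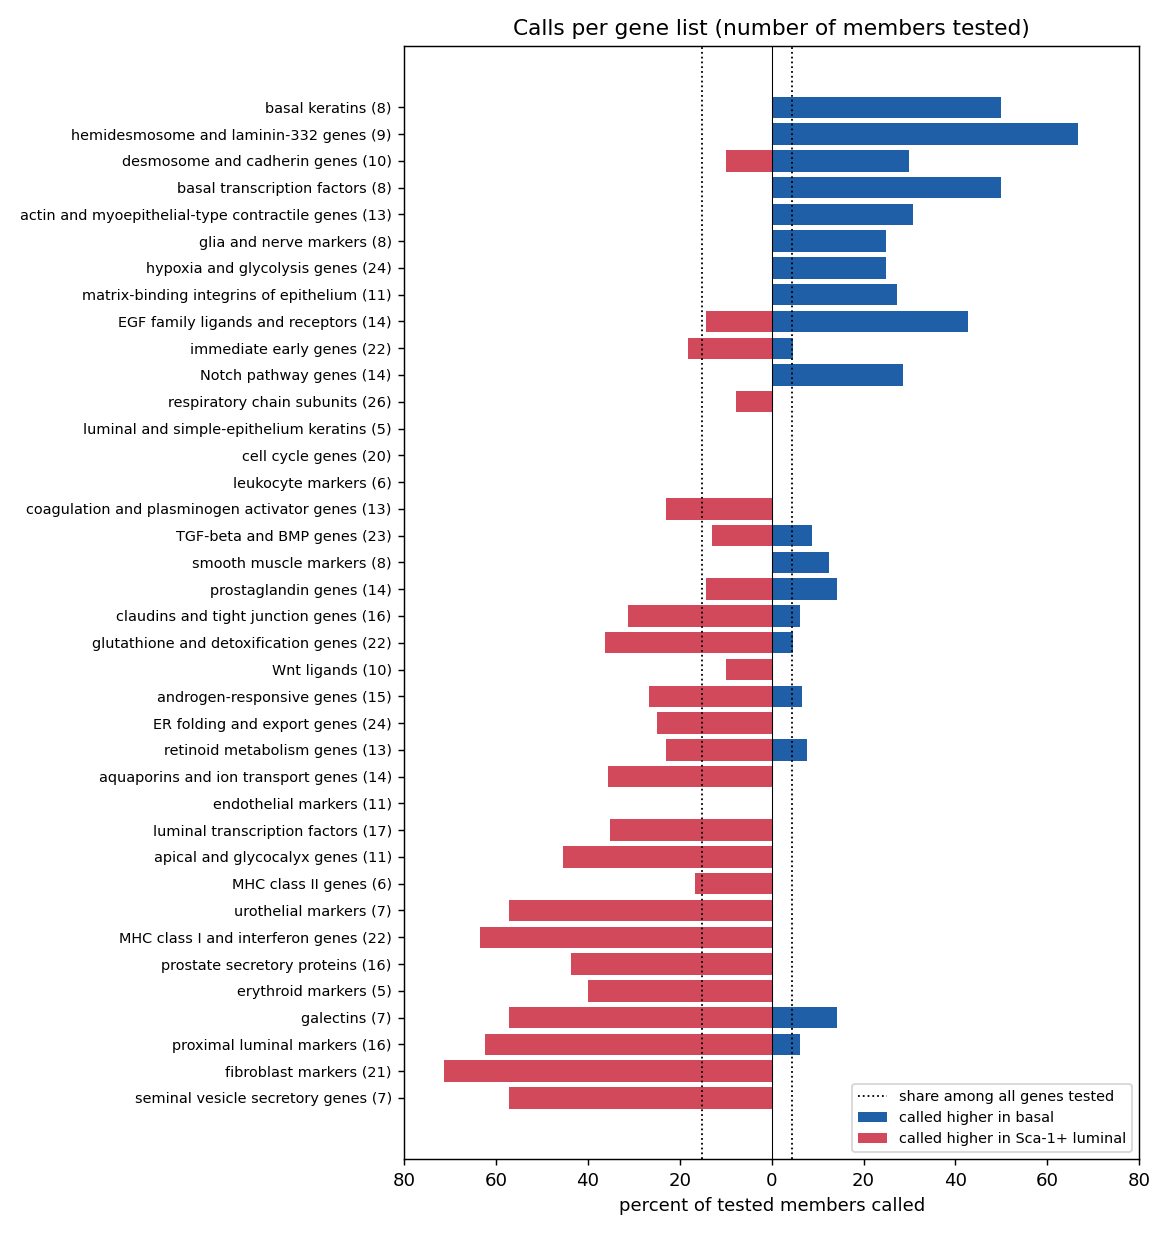
Percent of the tested members of each gene list (5 or more members, number in brackets) called higher in basal (blue, to the right) or higher in Sca-1+ luminal (red, to the left). Dotted lines mark the shares among all genes tested, 4.34% and 15.3%; hemidesmosome and laminin-332 genes reach farthest to the right, and fibroblast, MHC class I and interferon, and proximal luminal lists farthest to the left.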

How the data were processed

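RNA from sorted cells was amplified with random and poly(dT) priming (NuGEN Ovation) and sequenced on an Illumina HiSeq, per the labels' protocols. The submitters' processing notes name bcl2fastq 1.8.3, TopHat, Cufflinks and mm10. The authors deposited FPKM values per transcript for each library, and strand use in the estimation is not given in the sources used here. Transcripts were assigned by their mm10 locus to GENCODE M21 and RefSeq genes of GRCm38.p6, by shared ends or else by an overlap of at least 0.5 of the joint span with 1 gene, which placed 54289 of 63241 (85.8%). Transcripts under 300 nucleotides (8006) were left out and the rest summed to 24605 genes. Low values were whole multiples, within 0.05, of the worth of 1 fragment for 89.5 to 93.6% of values per library, which gave the depth. An FPKM of 0 may be a failed estimate: 478 genes read 0 in a library while another held 5 FPKM or above.

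Genes that reached 1 FPKM in 2 or more of the 10 libraries were tested with limma 3.58.1 in R 4.3.3 (group means of all 4 groups, moderated variance with a trend, 6 residual degrees of freedom) on log2(FPKM + 1). Summaries used Python 3.11.15. The analysis was tested on simulated data. Replicate numbers follow accession order and pair nothing. Alternatives were pseudocounts of 0.1 and 5, no filter and a 5 FPKM filter, median-of-ratios and quantile scaling, the 5 libraries alone, transcripts of any length, each Sca-1+ luminal library as the sole one, subtraction of a stromal share set by the fibroblast markers, and leaving out each library.

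Named genes are the markers and sort genes, the 10 largest and 10 smallest differences among called genes with groups apart, the same limited to genes above the stromal level, and up to 4 members of each list by size of difference plus 1 of opposite direction. Krt15, Krt6a, Krt8, Itgb4, Cd151, Cdh1, Cldn4, Cldn8, Cldn23, Hoxb13, Ehf, Notch1, Hes1, Hbegf, Ereg, Egfr, Erbb3, Aldoa, Ldha, Acta2, Clu, Wfdc2, Ly6d, Epcam, Upk3a, Sbpl, Msmb, Defb50, Lgals1, F3, B2m, H2-K1 and Dcn were added after their values were seen. Some genes that the rule names are not reported here, though the list counts hold them. The gene lists and the comparison were chosen with earlier results of these data known.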

Additional observations from a re-analysis of the deposited data

How the results depend on the processing

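The 2448 calls became 1253 with the 5 compared libraries alone and 989 with a stromal share subtracted, and ranged from 642 (without basal 2) to 3580 (without Sca-1+ luminal 3) when a library was left out. Calls higher in basal numbered 542, against 1174 under median-of-ratios scaling, 1099 under quantile normalization, 305 with the 5 libraries alone, 350 with Sca-1+ luminal 2 as the sole Sca-1+ luminal library, and 198 (without basal 2) to 768 (without Sca-1+ luminal 3) with a library left out. Calls higher in Sca-1+ luminal numbered 1906, against 966 under quantile normalization, 948 with the 5 libraries alone, 377 with a stromal share subtracted, and 444 (without basal 2) to 2812 (without Sca-1+ luminal 3) with a library left out. The causes were not tested. Subtracting a stromal share moved the median log2 difference of all genes from -0.29 to 0.36, and the libraries were not rescaled after it. Counts, signs and list medians under that subtraction therefore include this shift. Values that fell below 0 were set to 0, which enters the size of single differences. Dcn is among the fibroblast markers that set the share. Among named genes called in either fit, subtracting a stromal share turned the log2 difference toward basal for Twist2 (1.63), Creb3l1 (0.29), Wnt2 (0.091), Rdh10 (0.048), Lgals1 (1.74) and Dcn (8.80). Sca-1+ luminal 3 as the sole library turned Upk3b (0.76), Acta2 (2.14), Sbpl (5.01) and Msmb (2.55) toward basal, and Sca-1+ luminal 2 as the sole library turned Spink1 to -2.93; named genes called in neither fit that also changed sign numbered 14, 16 and 5. Spink1, 0.86 with all libraries, ranged from -2.53 (without Sca-1+ luminal 3) to 2.76 with a library left out. Of 40 list medians, 38 kept their sign under either rescaling and under the 5 FPKM filter, and 30 with a stromal share subtracted. Of 111 called genes named by the rule, 43 stayed called under every alternative. No paired analysis was possible because the labels give no replicate numbers. Depth of 20150000 to 27050000 fragments limits genes under about 1 FPKM, and 2 basal libraries limit every test.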
